A study of Homo sapiens with 8 samples.

Results

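The SLC25 mitochondrial carrier family was examined across 4 groups of MEG-01 libraries. Members were the protein-coding genes in the deposited tables whose symbol starts with SLC25A followed by a number, which gave 48 of 60709 genes (19986 of them protein coding). No measured value entered that choice. MEG-01 is an established human megakaryoblastic leukaemia line. The untreated group had no agent. The PMA group had phorbol 12-myristate 13-acetate, a phorbol ester and protein kinase C activator under which these cells take on megakaryocyte features, at 100 nM for 48 h. The PMA plus Ceefourin 2 group had that dose of PMA together with 20 µM Ceefourin 2, an inhibitor of the nucleotide exporter ABCC4, for 48 h. The Ceefourin 2 group had the inhibitor without PMA for 48 h, at a dose not given in the sources used here. Each group had 2 libraries of polyadenylated RNA. The labels do not say whether they came from separate cultures, so p-values measure only the spread between these libraries, which may be technical.

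SLC25 carriers are small proteins of the inner mitochondrial membrane, built from repeats of a shared module, that exchange solutes between cytosol and matrix. They carry ADP and ATP, phosphate, carboxylic acids, amino acids, cofactors and iron. Carriers are encoded in the nucleus, made in the cytosol and imported through the TOM complex, the small TIM chaperones and the TIM22 translocase. In blood cell precursors the family is best known for the iron supply of haem synthesis.

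Library totals were 44430292 to 89950886 expected counts. The share of counts on mitochondrially encoded genes was 2.55% and 3.94% (untreated), 9.61% and 4.53% (PMA), 8.32% and 4.94% (PMA plus Ceefourin 2), and 2.77% and 3.12% (Ceefourin 2). Every library with PMA therefore lay above every library without it. The share was highest in replicate 1 of both PMA groups, and the median PMA effect below is also given without those libraries. The line was checked against 10 megakaryocyte markers, whose summed level was 548.4 and 620.2 CPM (counts relative to library size, scaled by TMM) untreated and 2519 and 2719 CPM after PMA. All 9 tested markers rose after PMA (edgeR adjusted p below 0.05), while PF4, a platelet chemokine, had 0 counts in 7 of 8 libraries. Of 9 tested erythroid markers, 7 fell and 1 rose after PMA, and the summed level of the list was 907.2 and 921.1 CPM untreated against 324.6 and 322.8 CPM with PMA. ABCC4, the target of the inhibitor, had 343.8 and 305.0 CPM untreated, 593.6 and 544.6 CPM in PMA, 696.8 and 632.8 CPM in PMA plus Ceefourin 2, and 387.2 and 363.4 CPM in Ceefourin 2. It rose after PMA (log2 fold change 0.81, edgeR adjusted p = 0.000291) and was not called in the inhibitor comparisons (edgeR adjusted p = 0.369 with PMA and 0.414 without).

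Levels of different carriers were compared on the deposited TPM scale, which divides by transcript length. Untreated libraries had 0.386% and 0.404% of all TPM on the family, PMA libraries 0.321% and 0.358%, PMA plus Ceefourin 2 libraries 0.355% and 0.386%, and Ceefourin 2 libraries 0.406% and 0.448%. The PMA libraries did not overlap the untreated libraries on that scale, whereas 1 PMA plus Ceefourin 2 library reached the level of the lower untreated library. The TPM scale itself shifted, with a median of -0.14 over all genes on log2(TPM + 1) after PMA. SLC25A6, SLC25A3 and SLC25A5, the largest parts of the untreated share, overlapped between PMA and untreated in CPM and were not called. In TPM, SLC25A6 did not overlap (1201 and 1436 in PMA against 1564 and 1814 untreated). Nor did SLC25A5 (333 and 422 in PMA against 461 and 487 untreated), whereas SLC25A3 overlapped. SLC25A6 and SLC25A5 were not called on log2(TPM + 1) either. A few carriers made up most of the family TPM. SLC25A6, the third of the ADP/ATP carriers, ranked first in all 8 libraries, with 1564 and 1814 TPM untreated, and SLC25A3, the phosphate carrier, ranked second in all 8, with 525 and 553 TPM untreated. SLC25A5, a further ADP/ATP carrier, had 461 and 487 TPM untreated, and SLC25A39, the glutathione carrier, had 297 and 288 TPM. Both of these lay below SLC25A3 without overlap. SLC25A37, mitoferrin-1, which brings iron into the matrix, took rank 5 untreated with 203 and 205 TPM and rank 3 or 4 in the 4 libraries with PMA, with 362 to 427 TPM. These 5 carriers were the members at or above 100 TPM in every library, and 24 to 31 members reached 10 TPM, depending on the library. SLC25A24, an ATP-Mg/phosphate carrier, was at 22.1 and 21.7 TPM untreated and ranked sixth in each library with PMA, at 78.4 to 87.3 TPM.

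**Figure D1:**
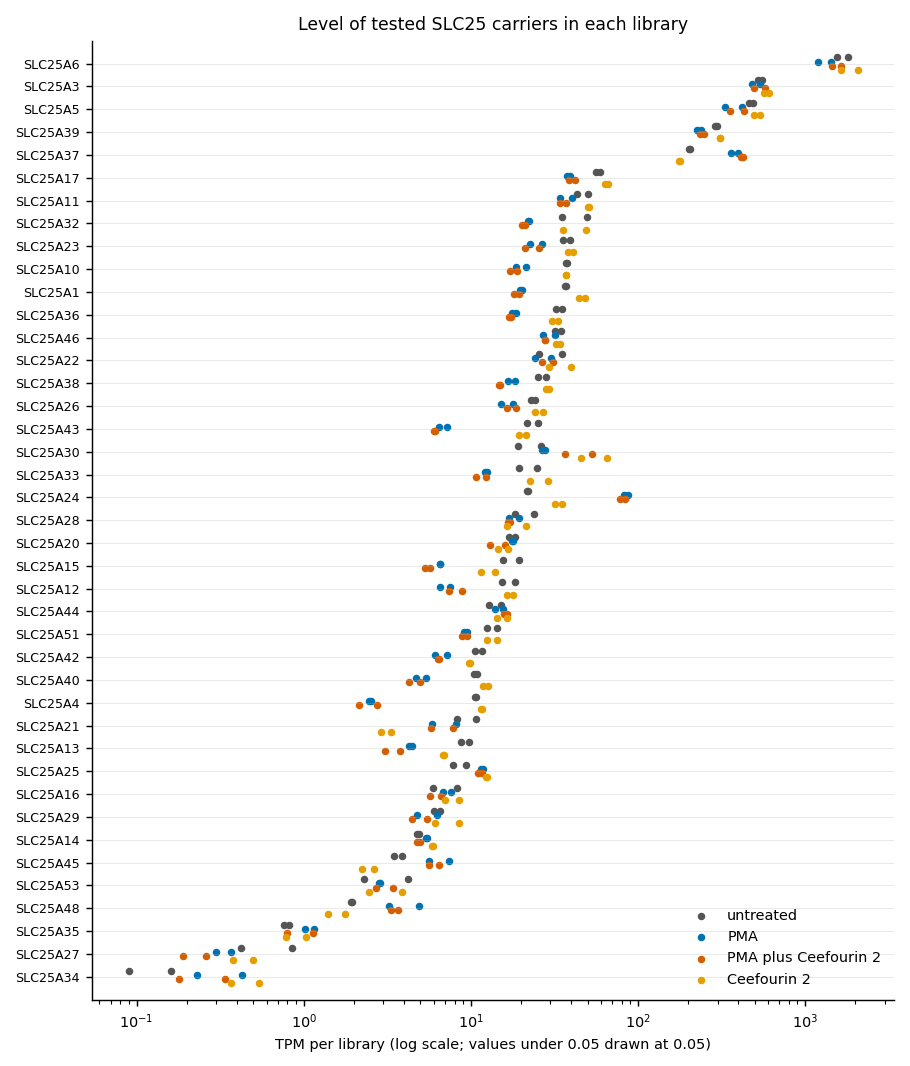
Level of tested SLC25 carriers in each library (horizontal axis, TPM on a log scale; 1 point per library, coloured by group; carriers ordered by untreated mean). SLC25A6 and SLC25A3 lead in every library, SLC25A37 and SLC25A24 stand further right in the 4 libraries with PMA, and SLC25A4 and SLC25A43 stand further left.

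The lowest members had too few reads to test. SLC25A2 (an ornithine carrier), SLC25A18 (a glutamate carrier), SLC25A31 (the germ cell ADP/ATP carrier) and SLC25A47 had at most 2 counts in any library. SLC25A41, an ATP-Mg carrier, had 3 to 8 counts. SLC25A52, an NAD carrier nearly identical to SLC25A51, had 2.09 to 12.48 expected counts, so that its reads cannot be placed with certainty. The other 42 members passed the filter on low counts. Counts were not whole in at least 1 library for 8 members (SLC25A5, SLC25A10, SLC25A33, SLC25A38, SLC25A48, SLC25A51, SLC25A52 and SLC25A53), which happens where reads match more than 1 gene, and their values are less certain for that reason.

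PMA against untreated cells asked how carrier transcripts after 48 h of PMA differed from those of untreated cells, whose time in culture is not given. Of 42 tested members, 8 rose and 14 fell at an edgeR adjusted p below 0.05, taken over all 17296 genes tested. That is 52.4% of the members, and the call rate over all tested genes was 53.6% (27.9% higher and 25.7% lower), so the share of carriers called was close to the background. The median log2 fold change was -0.11 over the members and -0.00 over all tested genes. Libraries of the compared groups did not overlap for 33 members, against 77.9% of all tested genes. Among called members, 5 rose at least 2-fold (SLC25A24, SLC25A48, SLC25A34, SLC25A37 and SLC25A45) and 3 fell at least 2-fold (SLC25A4, SLC25A43 and SLC25A15), where 16.2% and 10.3% of all tested genes did so. In bulk RNA, fewer cells of a type and less RNA per cell cannot be told apart. Without replicate 1 of both PMA groups, which leaves 1 library in each, the median log2 fold change was -0.10 over the members. Over all tested genes it was -0.01 in that fit. On log2(TPM + 1), where the median of all genes moved to -0.14, limma called 5 members higher and 20 lower, and 35.4% of calls over all genes were higher against 52.1% in edgeR.

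**Figure D2:**
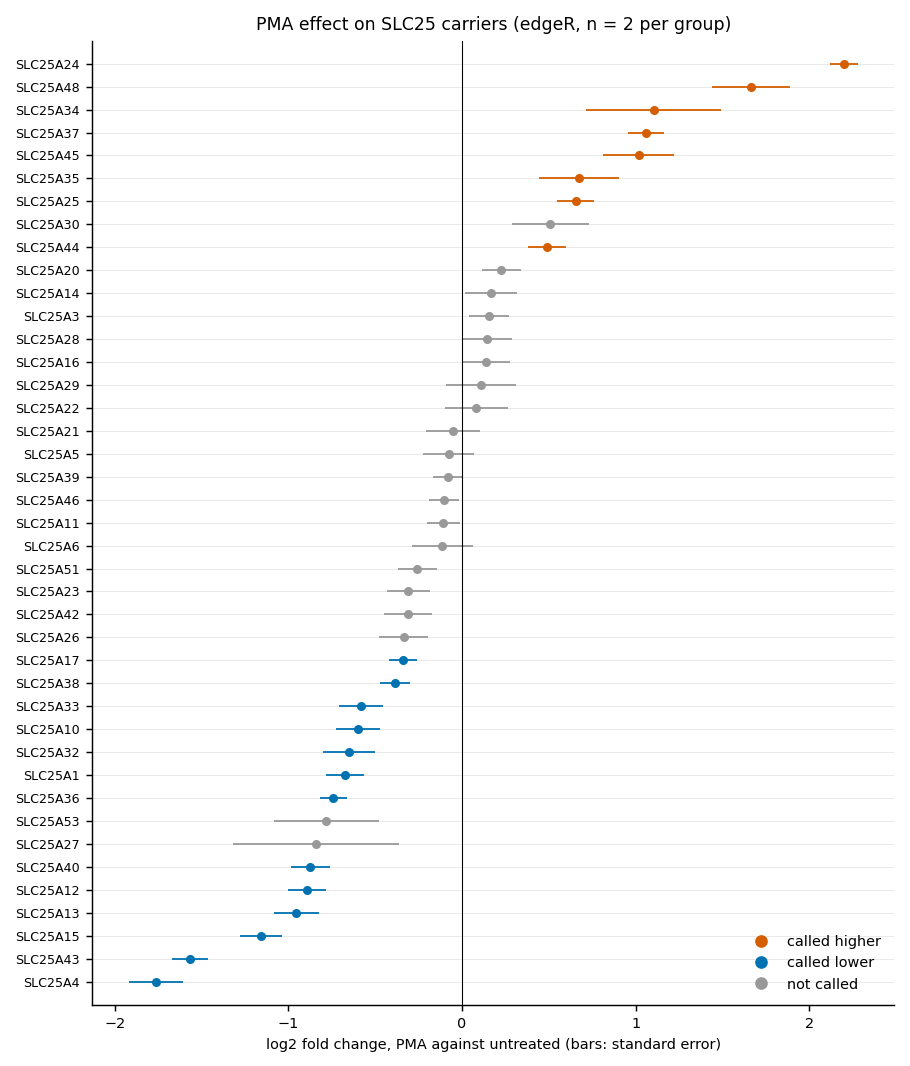
PMA effect on tested SLC25 carriers (horizontal axis, log2 fold change of PMA against untreated, with the standard error as bars; edgeR, 2 libraries per group). Members called higher range from 0.49 to 2.20 and members called lower from -1.76 to -0.34.

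The ADP/ATP carriers move ATP made in the matrix out to the cytosol in exchange for ADP. SLC25A4, the heart and muscle form, had 13.7 and 15.2 CPM untreated, 4.17 and 4.35 CPM in PMA, 3.60 and 4.62 CPM in PMA plus Ceefourin 2, and 14.9 and 15.9 CPM in Ceefourin 2. All 4 libraries with PMA lay below all 4 without it. SLC25A4 fell after PMA by 1.76 on the log2 scale, 3.40-fold lower (SE 0.16, edgeR adjusted p = 5.51e-05), and its change ranged from -2.06 to -1.67 over the alternatives, all of which called it. SLC25A5 had 325 and 376 CPM untreated against 295 and 370 CPM in PMA, and the groups overlapped (log2 fold change -0.08, 95% interval -0.42 to 0.26, edgeR adjusted p = 0.688). SLC25A6 had 1449 and 1832 CPM untreated against 1387 and 1648 CPM in PMA, again with overlap (-0.11, interval -0.52 to 0.30, edgeR adjusted p = 0.619). In TPM, SLC25A4 was 0.520% and 0.465% of the summed ADP/ATP carriers untreated and 0.164% and 0.132% in PMA. The ADP/ATP carrier that fell was therefore the minor one, and the 3 together were 47.9% to 58.7% of family TPM over the 8 libraries. SLC25A4 lies at chromosome 4, 185143241 to 185150382 (GRCh38, plus strand), and the bases before its RefSeq start are shown because it was the carrier with the largest fall. The printed stretch, chr4:185143016-185143240 on the plus strand of GRCh38.p14, stops where the first exon of the annotation begins, and capitals mark AGATAA, the letters bound by GATA factors.
SLC25A4: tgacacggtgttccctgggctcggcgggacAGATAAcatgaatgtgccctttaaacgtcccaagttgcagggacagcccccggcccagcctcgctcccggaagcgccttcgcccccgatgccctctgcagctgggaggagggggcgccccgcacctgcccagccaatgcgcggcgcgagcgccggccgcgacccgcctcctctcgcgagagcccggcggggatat

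The ATP-Mg/phosphate carriers adjust the adenine nucleotide pool of the matrix and are switched by cytosolic calcium. SLC25A24 had 52.7 and 56.0 CPM untreated, 243 and 256 CPM in PMA, 246.1 and 239.6 CPM in PMA plus Ceefourin 2, and 83.8 and 80.3 CPM in Ceefourin 2. The 4 libraries with PMA were the highest, the Ceefourin 2 libraries lay between, and no groups overlapped except the pair with PMA. SLC25A24, at chromosome 1, 108134036 to 108200849 (minus strand), rose 4.59-fold after PMA (log2 fold change 2.20, SE 0.08, edgeR adjusted p = 1.71e-06), the smallest p of the family. Its relative SLC25A25 had 21.5 and 18.4 CPM untreated and 30.4 and 32.5 CPM in PMA, without overlap, and rose (log2 fold change 0.66, SE 0.11, edgeR adjusted p = 0.00132). SLC25A23, the third of these, had 77.5 and 76.7 CPM untreated and 57.2 and 67.3 CPM in PMA and was not called (-0.31, edgeR adjusted p = 0.069). It was called lower on log2(TPM + 1) (-0.59, limma adjusted p = 0.00555). Of the 6 tested adenine nucleotide and ATP-Mg carriers, 2 rose, 1 fell and 3 were not called, where 27.9% of all tested genes rose and 25.7% fell.

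The phosphate, dicarboxylate and tricarboxylate carriers supply phosphate for ATP synthesis and exchange intermediates of the citric acid cycle. Of 7 tested, 2 rose, 2 fell and 3 were not called, with a median log2 fold change of -0.05. Among all tested genes 27.9% rose and 25.7% fell. SLC25A1, which exports citrate for lipid synthesis, had 36.0 and 38.5 CPM untreated, 22.7 and 24.1 CPM in PMA, 22 and 23.9 CPM in PMA plus Ceefourin 2, and 42.1 and 48.8 CPM in Ceefourin 2. The libraries with PMA lay below the rest, and SLC25A1 fell by 0.67 on the log2 scale (SE 0.11, edgeR adjusted p = 0.0013). SLC25A10, the dicarboxylate carrier, also fell (-0.60, edgeR adjusted p = 0.00459). SLC25A35 and SLC25A34, relatives without an assigned substrate, rose from low levels. SLC25A35 had 1.14 and 1.11 CPM untreated and 1.76 and 1.84 CPM in PMA (log2 fold change 0.68, SE 0.23, edgeR adjusted p = 0.0377). SLC25A34 had 0.187 and 0.376 CPM untreated and 0.610 and 0.627 CPM in PMA (1.10, SE 0.39, edgeR adjusted p = 0.0424). Neither group pair overlapped, but both calls were lost in DESeq2 (adjusted p = 0.0817 and 0.106) and on log2(TPM + 1) (limma adjusted p = 0.167 and 0.0962). SLC25A35 lost its call without any single untreated or PMA library (edgeR adjusted p from 0.0998 to 0.125), and SLC25A34 lost it without untreated replicate 1 (0.189), PMA replicate 1 (0.116), PMA replicate 2 (0.119) or any library of the other groups (0.0557 to 0.06). SLC25A3 (0.16, edgeR adjusted p = 0.29) and the oxoglutarate carrier SLC25A11 (-0.11, edgeR adjusted p = 0.3625), the most abundant of this role group, were not called, although SLC25A11 was called lower on log2(TPM + 1) (limma adjusted p = 0.0492). The oxodicarboxylate carrier SLC25A21 was not called either (-0.05, edgeR adjusted p = 0.8025).

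The carriers of amino acids, glutathione and carnitine were the largest role group, and 8 of 12 tested were called, 3 higher and 5 lower. Over all tested genes 53.6% were called, 27.9% higher and 25.7% lower. SLC25A12 and SLC25A13 exchange aspartate for glutamate in the malate-aspartate shuttle. SLC25A12 had 28.8 and 25.7 CPM untreated and 14.6 and 14.7 CPM in PMA, and fell by 0.89 on the log2 scale (SE 0.11, edgeR adjusted p = 0.000315). SLC25A13 had 16.2 and 15.8 CPM untreated and 8.73 and 7.74 CPM in PMA, and fell by 0.95 (SE 0.13, edgeR adjusted p = 0.000518). Both members of the pair were lower in each PMA library than in each untreated library. SLC25A15, which exchanges ornithine for citrulline in the urea cycle, had 47.4 and 41.4 CPM untreated, 19.6 and 20.2 CPM in PMA, 15.9 and 18.1 CPM in PMA plus Ceefourin 2, and 33.4 and 29.6 CPM in Ceefourin 2. The groups with and without PMA did not overlap, and SLC25A15 fell by 1.16 (SE 0.12, edgeR adjusted p = 0.000124). SLC25A40, a close relative of the glutathione carrier, had 14.0 and 14.1 CPM untreated and 7.39 and 7.93 CPM in PMA, and fell by 0.87 (SE 0.11, edgeR adjusted p = 0.000363). SLC25A39 itself, far more abundant, had 262 and 279 CPM untreated and 248 and 263 CPM in PMA with overlap (-0.08, edgeR adjusted p = 0.4525), but on log2(TPM + 1) it was called lower (-0.33, limma adjusted p = 0.00614). SLC25A38, which brings glycine into the matrix for the first step of haem synthesis, fell by 0.39 (edgeR adjusted p = 0.0069), from 38.0 and 37.0 to 27.8 and 29.7 CPM. That call was lost without PMA replicate 1 (log2 fold change -0.33) and without replicate 1 of both PMA groups (-0.33).

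The same role group held 3 rises. SLC25A48, linked to choline transport, had 1.692 and 1.599 CPM untreated, 4.63 and 5.79 CPM in PMA, 3.66 and 4.52 CPM in PMA plus Ceefourin 2, and 1.24 and 1.67 CPM in Ceefourin 2. It rose 3.17-fold after PMA (log2 fold change 1.67, SE 0.22, edgeR adjusted p = 0.000481) at a low level, with counts that were not whole in all 8 libraries. SLC25A45 had 5.59 and 6.89 CPM untreated and 11.7 and 13.6 CPM in PMA, and rose by 1.02 (SE 0.20, edgeR adjusted p = 0.00373). SLC25A44, which carries branched-chain amino acids, had 32.5 and 31.7 CPM untreated and 42.4 and 47.7 CPM in PMA, and rose by 0.49 (SE 0.11, edgeR adjusted p = 0.00578). The groups overlapped for SLC25A44 in TPM, with 15.1 and 12.9 TPM untreated and 14.0 and 15.5 TPM in PMA, and it was not called there (0.08, limma adjusted p = 0.634). The carnitine carrier SLC25A20 (0.23), the basic amino acid carrier SLC25A29 (0.11) and the glutamate carrier SLC25A22 (0.08) were not called.

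The carriers of cofactors, nucleotides and vitamins held 5 falls and no rise among 9 tested members, with a median log2 fold change of -0.34. Over all tested genes 25.7% fell. Libraries of PMA and untreated cells did not overlap for any of the 9, as for 77.9% of all tested genes. SLC25A36, which imports pyrimidine nucleotides for mitochondrial nucleic acid synthesis, had 78.9 and 75.7 CPM untreated, 45.9 and 46.4 CPM in PMA, 46.9 and 46.4 CPM in PMA plus Ceefourin 2, and 71.9 and 69.7 CPM in Ceefourin 2. The 4 libraries with PMA lay within 1 CPM of each other, well below the rest, and SLC25A36 fell by 0.74 on the log2 scale (SE 0.08, edgeR adjusted p = 0.000138). SLC25A33, the other pyrimidine nucleotide carrier, fell by 0.58 (edgeR adjusted p = 0.00524), from 67.3 and 57.1 to 42.3 and 40.7 CPM. The folate and flavin carrier SLC25A32 (-0.65, edgeR adjusted p = 0.00716) and the peroxisomal coenzyme A carrier SLC25A17 (-0.34, edgeR adjusted p = 0.0073) also fell. SLC25A32 and SLC25A17 lost their calls without untreated replicate 1 (log2 fold change -0.45 and -0.32) and without replicate 1 of both PMA groups (-0.62 and -0.36). The call of SLC25A17 was also lost without PMA replicate 2 (-0.31). The S-adenosylmethionine carrier SLC25A26 (-0.33), the coenzyme A carrier SLC25A42 (-0.31), the NAD carrier SLC25A51 (-0.26) and SLC25A16 (0.14) were not called, and the first 3 of these were called lower on log2(TPM + 1).

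The iron carriers feed haem and iron-sulphur cluster synthesis. SLC25A37 had 410 and 422 CPM untreated, 940 and 795 CPM in PMA, 985 and 887 CPM in PMA plus Ceefourin 2, and 332 and 341 CPM in Ceefourin 2. The groups with and without PMA did not overlap, and SLC25A37 rose 2.09-fold (log2 fold change 1.06, SE 0.10, edgeR adjusted p = 9.68e-05). It did so while 7 of the 9 tested erythroid markers fell, among them the alpha globin gene HBA2, from 138 and 144 to 28.6 and 21.9 CPM, and while ALAS2, the erythroid enzyme that opens haem synthesis, went from 13.77 and 17.98 to 22.1 and 25.5 CPM (0.58, edgeR adjusted p = 0.0318). SLC25A28, mitoferrin-2, the form of most other tissues, had 14.8 and 12.8 CPM untreated and 16.2 and 14.3 CPM in PMA with overlap, and was not called (0.15, 95% interval -0.18 to 0.48, edgeR adjusted p = 0.418). In TPM the untreated level of SLC25A37 was 203 and 205, against 24.0 and 18.4 for SLC25A28.

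Carriers without an assigned substrate included the family's second largest fall. SLC25A43, at chromosome X, 119399060 to 119454478 (plus strand), had 42.2 and 38.5 CPM untreated, 14.3 and 13.0 CPM in PMA, 12.7 and 12.3 CPM in PMA plus Ceefourin 2, and 35.3 and 34.0 CPM in Ceefourin 2. All libraries with PMA lay far below the rest, and SLC25A43 fell by 1.56 on the log2 scale, 2.96-fold lower (SE 0.10, edgeR adjusted p = 1.47e-05). SLC25A46, an outer membrane protein that shapes mitochondria, was not called (-0.11), nor was SLC25A53 (-0.78, edgeR adjusted p = 0.059). The 3 tested relatives of the uncoupling proteins, SLC25A14 (0.17), SLC25A27 (-0.84) and SLC25A30 (0.51, edgeR adjusted p = 0.0844), were not called after PMA. SLC25A30 was called higher in DESeq2 (adjusted p = 0.0419) and without either PMA plus Ceefourin 2 library (edgeR adjusted p = 0.0497 and 0.0494), but on log2(TPM + 1) its change was 0.26 (limma adjusted p = 0.371). SLC25A53 was called lower in DESeq2 (adjusted p = 0.0495) and without either Ceefourin 2 library (edgeR adjusted p = 0.031 and 0.0247). In TPM the groups overlapped for SLC25A53, with 4.20 and 2.31 TPM untreated and 2.87 and 2.81 TPM in PMA, and its change on log2(TPM + 1) was -0.11 and not called.

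**Figure D3:**
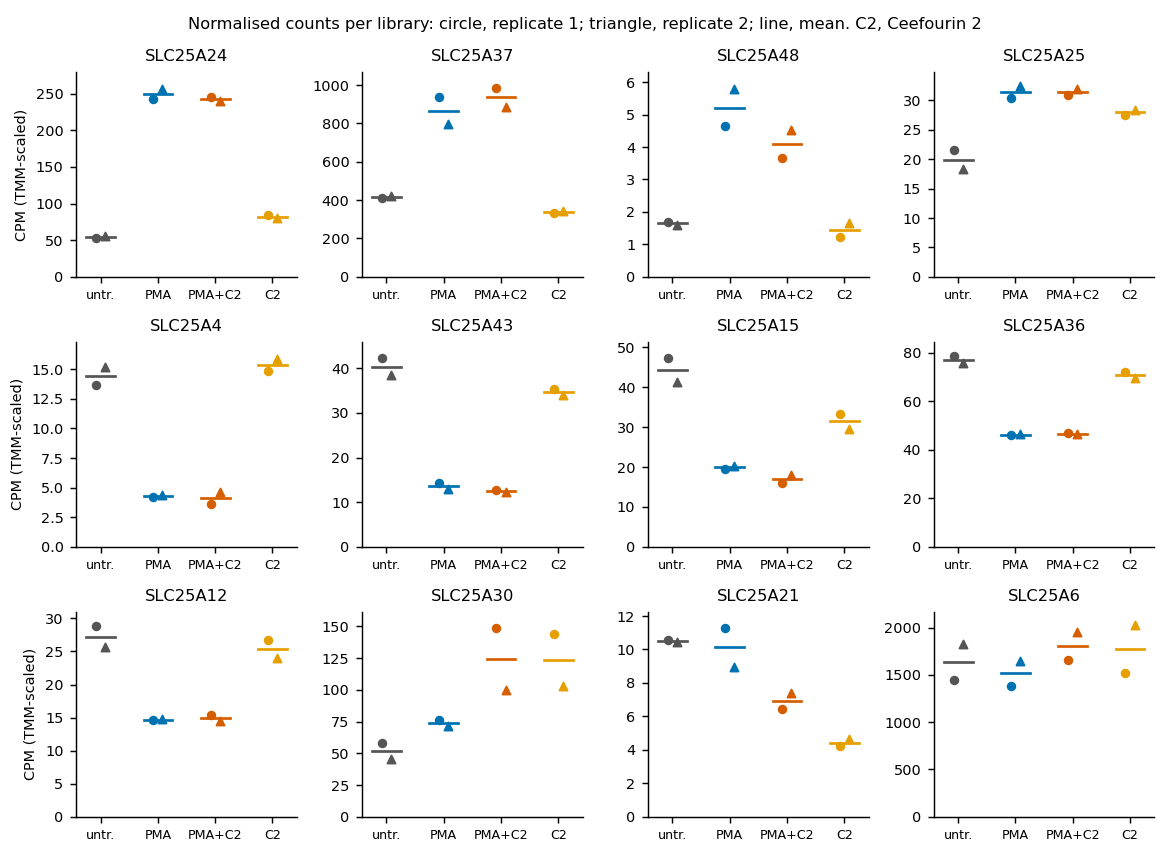
CPM of 12 SLC25 carriers in each library (vertical axes start at 0; circles are replicate 1, triangles replicate 2 and lines group means). SLC25A24, SLC25A37, SLC25A48 and SLC25A25 are higher in both groups with PMA, the 5 carriers from SLC25A4 to SLC25A12 are lower in both, and SLC25A30 and SLC25A21 differ most of the 12 between groups with and without Ceefourin 2.

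RefSeq promoter windows, 250 bases before the annotated start on GRCh38.p14, were found for 40 members and searched on both strands for 6 short motifs. The palindromic E-box CACGTG, bound by MYC and USF factors among others, was in the windows of 8 of 40 members (20.0%) and of 7.74% of all 27195 genes with a window. Of the 12 carriers that fell after PMA and had a window, 4 held it (SLC25A13, SLC25A33, SLC25A36 and SLC25A38), as did 0 of the 6 that rose and 4 of the other 22 (SLC25A26, SLC25A31, SLC25A46 and SLC25A51). The cyclic AMP response element TGACGTCA was in 3 members (7.5%), against 2.04% of all genes. Those 3 were SLC25A33 and SLC25A36, which fell, and SLC25A25, which rose. The AP-1 site TGANTCA, the response element of phorbol esters, was in 2 members (5.0%; SLC25A48 and SLC25A22), against 8.02% of all genes. The NRF1 site (GCGCA, any base, then GCGC) was in 4 members (10.0%, against 6.21%), the ETS site CCGGAAGT in 4 (10.0%, against 4.14%), among them SLC25A24, and the GATA site AGATAA in 2 (5.0%, against 11.1%). The 27195 genes were not limited to protein-coding or tested genes, whereas all members are protein coding. No motif share was taken over all genes that fell or rose after PMA. Such matches are descriptions of letters and no test was run on them. Windows of 3 falling carriers with an E-box are shown up to the first protein-coding exon, with the E-box and any cyclic AMP response element in capitals and no overlap between matches. They cover chr7:96322148-96322348 on the minus strand for SLC25A13, chr1:9539215-9539464 on the plus strand for SLC25A33, and chr3:140941586-140941829 on the plus strand for SLC25A36.
SLC25A13: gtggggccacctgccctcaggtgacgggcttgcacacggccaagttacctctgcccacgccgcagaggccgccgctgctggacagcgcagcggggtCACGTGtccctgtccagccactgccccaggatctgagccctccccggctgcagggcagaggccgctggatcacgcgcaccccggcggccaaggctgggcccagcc
SLC25A33: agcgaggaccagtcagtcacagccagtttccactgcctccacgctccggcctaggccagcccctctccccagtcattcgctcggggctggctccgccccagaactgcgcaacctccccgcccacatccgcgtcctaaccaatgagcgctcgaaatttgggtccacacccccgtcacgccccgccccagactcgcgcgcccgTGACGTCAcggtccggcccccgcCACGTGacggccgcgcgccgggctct
SLC25A36: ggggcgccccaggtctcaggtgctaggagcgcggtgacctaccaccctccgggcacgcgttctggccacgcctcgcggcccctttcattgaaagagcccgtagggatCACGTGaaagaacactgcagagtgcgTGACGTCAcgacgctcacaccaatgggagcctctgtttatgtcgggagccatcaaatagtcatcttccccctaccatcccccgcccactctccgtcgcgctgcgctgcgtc
In SLC25A33 the E-box opens 26 bases and the cyclic AMP response element 49 bases before the RefSeq start, and in SLC25A36 the order is reversed, at 143 and 117 bases. The single E-box of SLC25A13 opens 154 bases before the start.

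Genes around the family were set beside it, where 27.9% of all tested genes rose and 25.7% fell after PMA. Of 13 genes of the carrier import pathway, 9 fell and 0 rose after PMA, with a median log2 fold change of -0.56. They included the outer membrane pore TOMM40 (-0.83), the receptors TOMM70 (-0.56) and TOMM22 (-0.58), and the small chaperone TIMM13 (-0.63). Of 13 tested markers of mitochondrial content, 8 fell and 0 rose, with a median of -0.55, led by the mitochondrial DNA packaging factor TFAM (-1.27), citrate synthase CS (-0.90) and the chaperones HSPD1 (-1.05) and HSPA9 (-0.62). Their summed level was 4459 and 4230 CPM untreated, 2712 and 2769 CPM in PMA, 2548 and 2682 CPM in PMA plus Ceefourin 2, and 4199 and 4066 CPM in Ceefourin 2. The 8 content markers that fell changed in the direction of the 14 falling carriers, and the other 5 were not called, 3 of them with positive values (TOMM34, POLG and PPARGC1B). Their part in the carrier changes was not tested. The share of counts on mitochondrially encoded genes went the other way, higher in every library with PMA than in every library without it. Of 22 other mitochondrial membrane transporters, 3 rose and 11 fell (median -0.21). The sideroflexins SFXN4 (-1.61) and SFXN1 (-0.93) and the calcium uniporter MCU (-0.66) fell, and SFXN3 (0.65) rose. Among family relatives under other symbols, MTCH2 fell (-0.36) and UCP2, UCP3 and MTCH1 were not called. Of lists for other cell types, 2 of 5 tested monocyte and macrophage markers rose and 2 fell, 3 of 6 stromal and endothelial markers rose and 1 fell, and 0 of 2 lymphoid markers were called. Summed monocyte and macrophage markers went from 253.1 and 274.7 CPM to 546.0 and 606.6 CPM with PMA, most of it from CD68, at 167.2 and 189.5 CPM untreated and 516.8 and 576.1 CPM in PMA. The other abundant markers of that list, ITGAM (-3.90) and LYZ (-0.40), fell.

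**Figure D4:**
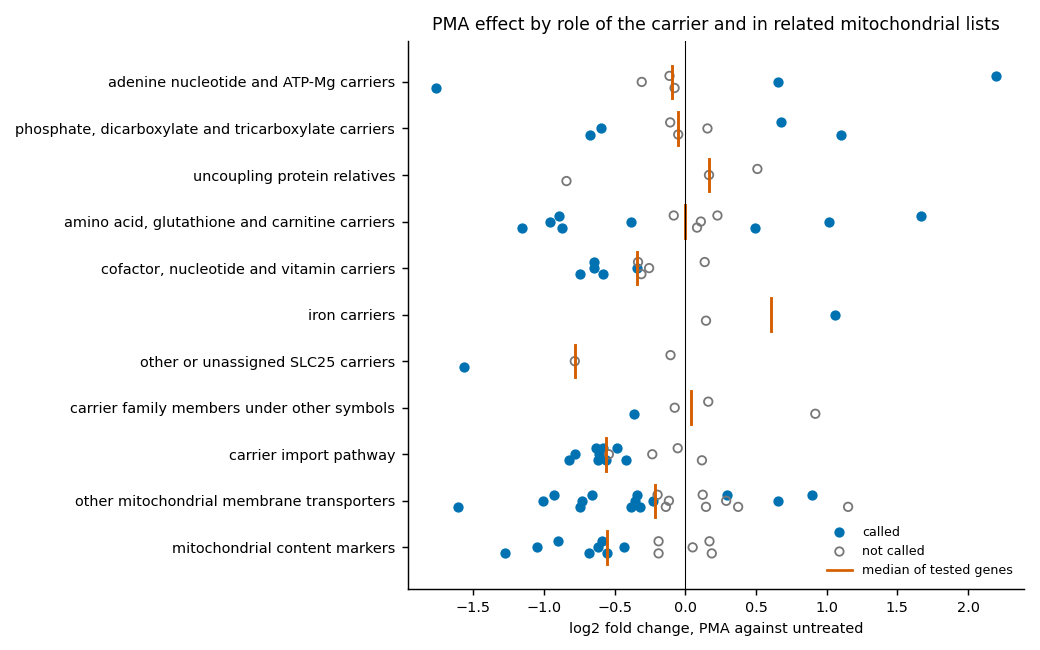
PMA effect by role of the carrier and in 4 related mitochondrial lists (horizontal axis, log2 fold change of PMA against untreated; 1 point per tested gene, filled where called at an edgeR adjusted p below 0.05; the bar is the median of tested genes). The cofactor carriers have a median of -0.34, and the import pathway and content markers have medians of -0.56 and -0.55.

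PMA plus Ceefourin 2 against PMA asked what the ABCC4 inhibitor changed in cells given PMA. No carrier was called in edgeR, and 1.81% of all tested genes were (0.914% higher and 0.896% lower). The PMA libraries here are those of the comparison above. At an unadjusted p below 0.05 there were 4 members, DESeq2 called 1 (SLC25A30) and limma on log2(TPM + 1) called 0. Log2 fold changes ran from -0.55 to 0.75, with a median of -0.04 over the members and 0.00 over all genes, and the lowest adjusted p was 0.152. SLC25A30, a relative of the uncoupling proteins, had 76.2 and 71.1 CPM in PMA and 149 and 99.9 CPM with the inhibitor added, without overlap (0.75, 95% interval 0.25 to 1.26, edgeR adjusted p = 0.164, DESeq2 adjusted p = 0.0217). SLC25A21, the oxodicarboxylate carrier of lysine and tryptophan breakdown, had 11.3 and 8.95 CPM in PMA and 6.42 and 7.37 CPM with the inhibitor, without overlap in CPM (-0.55, interval -0.92 to -0.19, edgeR adjusted p = 0.152). In TPM the groups overlapped, at 8.2 and 5.86 TPM in PMA and 7.87 and 5.75 TPM with the inhibitor, and the change on log2(TPM + 1) was -0.04 (limma adjusted p = 0.988). The other members at an unadjusted p below 0.05 were SLC25A13 (-0.44, edgeR adjusted p = 0.177) and SLC25A20 (-0.31, edgeR adjusted p = 0.256). Libraries did not overlap for 11 members, against 45.3% of all tested genes. For SLC25A24 the difference was -0.04 (interval -0.22 to 0.14), for SLC25A4 -0.04 (interval -0.40 to 0.32), for SLC25A43 -0.13 (interval -0.37 to 0.11), for SLC25A15 -0.22 (interval -0.50 to 0.05), for SLC25A37 0.11 (interval -0.13 to 0.35) and for SLC25A48 -0.35 (interval -0.83 to 0.14). Libraries overlapped for SLC25A24, SLC25A4 and SLC25A37 and did not for the other 3, and a change of 2-fold in either direction lay outside each of these intervals. For SLC25A34 (-0.13, interval -0.97 to 0.70) and SLC25A45 (-0.09, interval -0.55 to 0.37), which had also risen at least 2-fold after PMA, libraries overlapped.

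Ceefourin 2 against untreated cells asked what the inhibitor did without PMA. Of the 42 members, 2 rose and 1 fell (7.14%), where 1.68% of all tested genes were called (0.96% higher and 0.723% lower). Libraries did not overlap for 21 members, against 40.7% of all tested genes, and the median log2 fold change was 0.05 over the members and -0.00 over all genes. SLC25A30, at chromosome 13, 45393316 to 45418455 (minus strand), had 57.9 and 45.7 CPM untreated and 144 and 103 CPM with Ceefourin 2. The groups did not overlap, although the Ceefourin 2 libraries were far apart, and SLC25A30 rose 2.39-fold (log2 fold change 1.26, SE 0.22, edgeR adjusted p = 0.0391). SLC25A21, at chromosome 14, 36678431 to 37172866 (minus strand), had 10.6 and 10.4 CPM untreated and 4.21 and 4.64 CPM with Ceefourin 2, without overlap. It fell by 1.25 on the log2 scale, 2.38-fold lower (SE 0.16, edgeR adjusted p = 0.0128). SLC25A24, whose libraries did not overlap either (values above), rose by 0.59 (SE 0.08, edgeR adjusted p = 0.0137). SLC25A30 and SLC25A21 were the members called at 2-fold or more, where 0.422% of all tested genes were called at least 2-fold higher and 0.416% at least 2-fold lower. These untreated libraries are also the controls of the PMA comparison. All 3 calls were lost without untreated replicate 1 (edgeR adjusted p from 0.0807 to 0.127), without untreated replicate 2 (0.0824 to 0.231), without Ceefourin 2 replicate 1 (0.0565 to 0.135) and in a fit of these 4 libraries alone (0.0677 to 0.103), and each kept its sign in all of them. The call of SLC25A30 was also lost without PMA replicate 1 or replicate 2 (log2 fold change 1.26 in each). On log2(TPM + 1) SLC25A30 was not called either (1.24, limma adjusted p = 0.0505). Of 9 tested erythroid markers 8 fell with Ceefourin 2 (summed level 425.4 and 399.6 CPM against 907.2 and 921.1 CPM), whose part in the carrier changes was not tested. A further 6 members had an unadjusted p below 0.05, among them SLC25A25 (0.49, edgeR adjusted p = 0.0751) and SLC25A15 (-0.50, edgeR adjusted p = 0.0945), both called in DESeq2 (adjusted p = 0.00312 and 0.017). SLC25A37 had 332 and 341 CPM with Ceefourin 2, below both untreated libraries, and was not called (-0.31, edgeR adjusted p = 0.23).

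**Figure D5:**
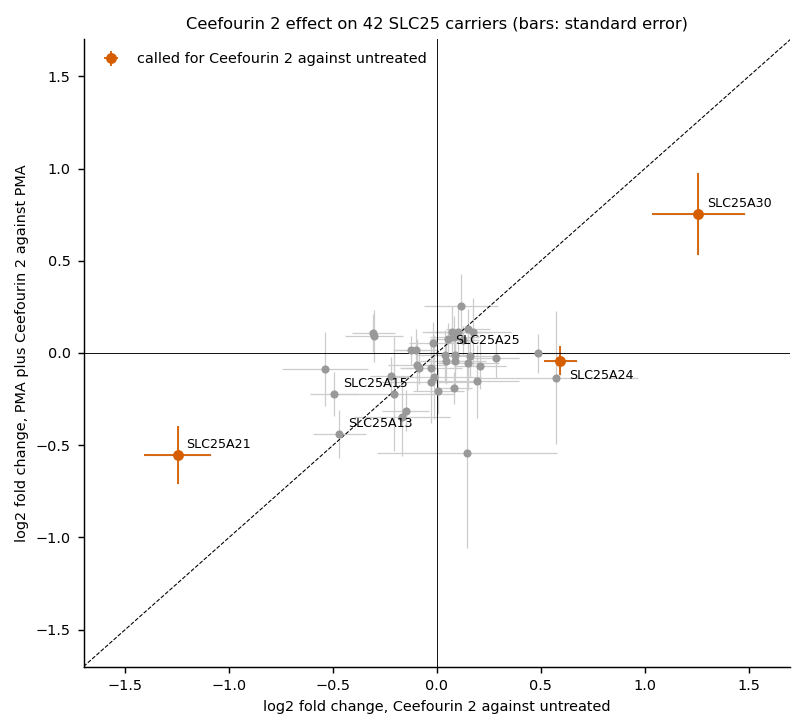
Ceefourin 2 effect on the 42 tested SLC25 carriers without PMA (horizontal axis, log2 fold change against untreated) and with PMA (vertical axis, log2 fold change against PMA), with standard errors as bars and a dashed line of equal effects. SLC25A30 lies at 1.26 and 0.75, SLC25A21 at -1.25 and -0.55, and SLC25A24 at 0.59 and -0.04.

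The interaction of PMA and Ceefourin 2 tested whether the inhibitor effect differed with PMA present. No carrier was called in edgeR, against 0.0116% of all tested genes, 4 members had an unadjusted p below 0.05, and DESeq2 called 1. That member was SLC25A24, whose Ceefourin 2 effect was smaller with PMA by 0.63 on the log2 scale (interaction -0.63, 95% interval -0.89 to -0.38, edgeR adjusted p = 0.144, DESeq2 adjusted p = 0.00031). Its 4 libraries with PMA, with or without the inhibitor, lay between 239.6 and 256.3 CPM. For SLC25A30 the interaction was -0.50 (interval -1.22 to 0.21, edgeR adjusted p = 0.899), and for SLC25A21 it was 0.69 (interval 0.18 to 1.21, edgeR adjusted p = 0.503). The test did not show that the inhibitor effect on either depended on PMA. With SLC25A24 and SLC25A21, the 4 members at an unadjusted p below 0.05 included SLC25A25 and SLC25A37. Their interactions were -0.49 (interval -0.84 to -0.14, edgeR adjusted p = 0.475) and 0.42 (interval 0.08 to 0.75, edgeR adjusted p = 0.563).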

How the data were processed

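MEG-01 mRNA libraries of 8 samples were prepared with strand marked, per the labels' protocols. The submitters' processing notes name STAR 2.7, RSEM 1.3.1 and hg38. The annotation release and RSEM's strand setting are not given in the sources used here, so reads of antisense partners of SLC25A5, SLC25A21 and SLC25A25 may not be separable. The authors deposited expected counts per gene, not normalized, and TPM per gene. Rows of 45 genes present on X and Y, SLC25A6 among them, held equal values and were summed. After rounding, expected counts were fitted over the 8 libraries with edgeR 4.0.16 in R 4.3.3 (filterByExpr, TMM factors 0.919 to 1.084, quasi-likelihood test, 4 residual degrees of freedom, biological coefficient of variation 13.6%). Benjamini-Hochberg adjustment covered all 17296 tested genes, and "called", "rose" and "fell" mean an adjusted p below 0.05. CPM are TMM-scaled. With 2 libraries per group every spread is imprecise. Simulated data for PMA against untreated had 200 changed of 16815 genes. The fit called 91% of 2-fold and 100% of 4-fold changes, and 4.5% of its 200 calls were unchanged genes. Changed genes were drawn only from well-counted genes, all genes had the same spread, and far more genes were called in the real comparison. These rates therefore do not carry over to low-count members such as SLC25A34.

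Members, lists, motifs and tests were chosen with earlier results of these data known. Any member could be named, except 1 that counts include but whose values are not reported here. Full values were given for up to 8 called members per direction and comparison and for the ADP/ATP and iron carriers, and other lists were represented by up to 4 called genes of smallest p. HBA2 and ALAS2 were named beside SLC25A37, and ALAS2 was chosen after its values were seen. Gene positions are from GENCODE 29 on GRCh38. Alternatives were DESeq2 1.42.0, RLE scaling, other filters, limma 3.58.1 on log2(TPM + 1) and log2(TPM + 0.1), the replicate number as a block, no mitochondrially encoded genes, the compared groups alone, and fits without single libraries or without replicate 1 of both PMA groups. Keeping X and Y copies apart was chosen after seeing the data.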

Additional observations from a re-analysis of the deposited data

How the results depend on the processing

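Of the 22 carriers called after PMA, 15 were called in all 19 alternatives and 16 without any 1 library, and all 22 kept their sign throughout. Leaving out each library in turn gave 18 to 22 called carriers after PMA, 0 for PMA plus Ceefourin 2 against PMA, 0 to 3 for Ceefourin 2 against untreated and 0 for the interaction. With the lone library left in a group, its spread was taken from the other groups. For PMA plus Ceefourin 2 against PMA, where edgeR called 0, DESeq2 called 1, no filter on low counts called 1 and the replicate block called 3 (SLC25A30 and SLC25A6 higher, SLC25A13 lower). Over all genes these fits called 313, 801, 1206 (of 29934 tested) and 1473 in that order. For Ceefourin 2 against untreated, edgeR called 3, DESeq2 called 5, no filter called 5, the replicate block called 8 and the groups compared alone gave 0. Over all genes these fits called 291, 837, 1167, 1425 and 31 in that order. Without replicate 1 of both PMA groups, SLC25A30 (log2 fold change 1.26), SLC25A21 (-1.25) and SLC25A24 (0.595) kept their sign but lost their calls. For the interaction DESeq2, no filter and the replicate block each called 1, SLC25A24. After PMA the replicate block called 30 carriers, 11 higher and 19 lower, and 11140 of 17296 genes, against 9274 in the main fit. The causes of these shifts were not tested. Same-numbered libraries deviated together (correlations 0.136 to 0.363 over the 6 pairs of groups), but the labels give no source of a pairing and each group has only 2 numbers, so the block is not read as a stronger effect. Depth limits the members below 1 CPM, SLC25A34 and SLC25A27.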

Other observations

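Beside the 48 protein-coding members, 45 further rows carried SLC25A symbols, as pseudogenes or antisense transcripts. Of these 27 were at 0 counts in all 8 libraries, 39 stayed below 10 counts in all 8, and 6 were tested. None of the 6 was called in edgeR in any comparison. SLC25A25-AS1, antisense to the ATP-Mg carrier SLC25A25, had 3.26 and 3.17 CPM untreated and 3.78 and 2.81 CPM in PMA (log2 fold change 0.04, edgeR adjusted p = 0.891), while SLC25A25 itself rose. SLC25A24P1, a transcribed pseudogene of SLC25A24, had 1.00 and 1.12 CPM untreated and 0.882 and 0.985 CPM in PMA (-0.18, edgeR adjusted p = 0.536), while SLC25A24 rose 4.59-fold. With Ceefourin 2 added to PMA that pseudogene had 1.37 and 1.65 CPM (0.69, edgeR adjusted p = 0.221). SLC25A21-AS1, antisense to SLC25A21, had 0.831 and 1.08 CPM untreated and 0.530 and 1.64 CPM with Ceefourin 2 (0.18, edgeR adjusted p = 0.933), while SLC25A21 fell.

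One gene outside the family but on the same route into mitochondria differed with the inhibitor in cells given PMA. CPT1A, the outer membrane enzyme that forms the acylcarnitines carried inward by SLC25A20, had 122.5 and 139.7 CPM in PMA and 74.6 and 70.2 CPM in PMA plus Ceefourin 2 (log2 fold change -0.86, edgeR adjusted p = 0.00956). It was the only called gene among the 22 other mitochondrial membrane transporters in that comparison, where 1.81% of all tested genes were called. CPT1A was also lower in PMA than untreated (-0.75, edgeR adjusted p = 0.000511). With Ceefourin 2 alone it was not called (-0.37, edgeR adjusted p = 0.141). Its interaction was -0.49 (edgeR adjusted p = 0.447), so the inhibitor effect on CPT1A was not shown to depend on PMA. SLC25A20 had 22.5 and 22.3 CPM in PMA and 19.2 and 16.9 CPM with the inhibitor, without overlap, and was not called (-0.31, edgeR adjusted p = 0.256).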
